A study of Mus musculus with 12 samples.

Results

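Mouse embryonic fibroblasts (MEFs) that lack Carm1 were followed through 18 h without glucose in 4 RNA-seq libraries, 2 from cells in rich medium at 0 h and 2 from starved cells. The libraries were chosen by their labels, as those of the Carm1 KO genotype, out of 8 RNA-seq libraries and 12 samples in the series. The other 4 RNA-seq libraries, of wild-type MEFs under the same 2 conditions, serve here to share the estimate of spread and to test where the knockout's response differed. All cells were C57BL/6 MEFs at passages 3 to 5. Rich medium was DMEM with 10% FBS and antibiotics, and starvation meant a PBS wash followed by glucose-free DMEM with 10% dialyzed FBS. The starved cells therefore differed from the rich ones in glucose, in dialysis of the serum and in time, and these cannot be told apart, because no library of cells kept in rich medium for 18 h is used here. The labels do not say which part of Carm1 was removed, from how many embryos the cells came, or whether replicates were separate cultures, so the p-values rest on a spread between libraries that may be technical.

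CARM1, also called PRMT4, methylates arginines of histone H3 and of other nuclear proteins and acts as a coactivator of transcription. Cells without glucose run short of glycolytic intermediates, of precursors for protein glycosylation and of ATP; the energy sensor AMPK, the unfolded protein response of the endoplasmic reticulum (ER) and the ATF4 arm of the integrated stress response are the best known answers. Fibroblasts also adjust actin, matrix and growth genes through SRF, YAP and TEAD, AP-1 and NF-kB, factors that read serum, tension and stress.

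Carm1 itself was read first. Its level in the knockout was 48.1 and 70.8 counts per 1000000 counts of the scaled library (CPM) in rich libraries 1 and 2. It was 53.9 and 58.6 CPM in starved libraries 1 and 2, while the wild-type libraries held between 164 and 207 CPM. All 4 knockout libraries were below all 4 wild-type libraries, and the transcript was reduced but not absent. Its starved libraries lay between the rich ones, and starvation did not move it past the threshold (log2 fold change -0.08 ± 0.19 (SE, n = 2 libraries per group), adjusted p 0.795; the change was -0.31 without rich library 1 and 0.23 without rich library 2, each past the threshold). Here and below, CPM are scaled to the library total multiplied by its TMM normalization factor from edgeR. A log2 fold change is starved over rich, with its standard error from edgeR's quasi-likelihood fit over all 8 libraries (2 per group). Rose or fell means a Benjamini-Hochberg adjusted p under 0.05 over the 13882 genes tested.

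The 2 rich knockout libraries were unlike each other and are given separately throughout. Rich library 1 held 8447016 counts and rich library 2 held 21529669, against 24312467 to 26641106 in the starved pair, so that 3 counts are worth 0.369 CPM in rich library 1 and 0.139 CPM or less in the others. Over 9392 genes with a mean of at least 10 CPM, the SD of the log2 ratio between the rich libraries was 0.746, where the other 3 replicate pairs gave 0.130 to 0.145. The spread between the rich libraries was as wide as many of the changes described here, and it moved with gene length. With genes split into 5 groups by RefSeq span, from the shortest to the longest group the median log2 ratio of rich library 1 over rich library 2 went through -0.55, -0.28, -0.03, 0.15 and 0.20. Short genes were thus low in rich library 1, and the median change from rich library 1 to the starved mean ran from 0.56 in the shortest group to -0.15 in the longest, while from rich library 2 it stayed between 0.01 and 0.05. The calls of starvation also moved with gene length. In the same order of groups, of 1871 genes in the shortest and 1870 in each other, 206, 215, 197, 178 and 184 rose. Those that fell were 154, 194, 205, 244 and 234. The median fitted log2 fold change was 0.21, 0.10, 0.03, -0.07 and -0.07. How much of this came from the spread between the rich libraries was not tested.

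Among 8011 genes with at least 20 CPM in either rich library, 381 (4.76%) were over 2-fold higher in rich library 1 and 1030 (12.9%) over 2-fold lower. Tspo, an outer mitochondrial membrane protein, read 11.3 and 93.3 CPM in rich libraries 1 and 2 and 61.1 and 73.5 CPM after starvation. Rps14, a protein of the small ribosomal subunit, read 40.0 and 297 and then 278 and 294 CPM. Galk1, which phosphorylates galactose, read 13.8 and 85.9 and then 67.2 and 72.8 CPM. In each of these 3 the starved level lay nearer to rich library 2 and far above rich library 1. Ppig, a cyclophilin found with splicing factors, went the other way, at 659 and 177 CPM in the rich pair and 246 and 209 CPM in the starved pair. Ube2d3, a ubiquitin-conjugating enzyme, was at 1142 and 322 and 416 and 377 CPM. None of these 5 genes passed the test of starvation.

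The fibroblast label was checked against 14 marker genes, whose summed level was 17323 and 20299.9 CPM in the rich and 17697 and 17241 CPM in the starved libraries; Fap was at 0 in all 4. By the test of starvation 5 of the 14 fell and none rose. S100a4, a calcium-binding protein, went from 1011 and 1091 to 399 and 429 CPM (-1.34 ± 0.12), and Col3a1, Pdgfrb, Prrx1 and Lum were the others. Fn1, the fibronectin gene, which did not pass, alone held 9078 and 10152 CPM in the rich and 10587 and 10326 CPM in the starved pair, more counts than any other gene drew after starvation. Fibroblast markers also differed between the genotypes. Dcn read 0.372 to 0.762 CPM in the wild-type libraries and 1172 to 1954 CPM in the knockout ones. Thy1 read at most 0.214 CPM in the wild type and at least 124 CPM in the knockout. Col1a1 went the other way, at 1400 to 2807 CPM in the wild type and 636 to 1207 CPM in the knockout. Markers of other cells were read the same way. Of 10 endothelial markers, 6 were below 1 CPM in all 4 libraries with Tie1 and Emcn at 0, and the sum of 144 and 174 CPM in the rich and 258 and 257 CPM in the starved libraries came mostly from Cdh5, the endothelial cadherin. Of 12 skeletal muscle markers, 9 were below 1 CPM and Myod1, Myog and Myf5 at 0, while the sum of 186 and 193 CPM in the rich and 330 and 294 CPM in the starved pair came from Tnnt2, a cardiac troponin. Cdh5 stood at no more than 0.0713 CPM and Tnnt2 at no more than 1.49 CPM in the wild-type libraries, far below the knockout in both media. In bulk RNA, fewer cells of a type and less RNA per cell cannot be told apart, and the part of such cells in the results below was not tested.

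After 18 h without glucose, 2528 of 13882 genes changed in the knockout (18.2%), 1171 higher (8.44%) and 1357 lower (9.78%). All 2528 had both starved libraries outside the range of the rich pair, so in a gene given below as changed this adds nothing to the call. The condition was met upwards by 3987 of all genes (28.7%) and downwards by 3694 (26.6%), and 6201 (44.7%) did not meet it. A stricter reading asks that the starved mean lie over 2-fold from each rich library, and 398 genes (2.87%) did so upwards and 417 (3%) downwards. Set against rich library 2 alone, 3621 genes rose (25.4%) and 3481 fell (24.4%); set against rich library 1 alone, 4679 rose (32.9%) and 3730 fell (26.2%). For the gene groups below, counts or medians without rich library 1 and without rich library 2 are given beside the main ones. Such counts are to be read against those larger shares, and main counts against 8.44% higher and 9.78% lower over all genes. A fit without a rich library drops the widest replicate pair (SD 0.746, other pairs 0.130 to 0.145) from the shared estimate of spread. A call kept without a rich library is therefore no added support. Leaving out a starved library cut the calls to 267 (without starved library 1) and 265 (without starved library 2), the lone library being assumed to vary like the other groups, and leaving out a wild-type library left between 1234 and 1306. In the fit of the 4 knockout libraries alone, edgeR passed 0 genes, the lowest adjusted p being 0.0583, while 2803 had an unadjusted p under 0.05. In the same 4 libraries DESeq2 passed 1159 genes and limma-voom with library quality weights 916; these 2 fits were chosen after seeing the data.

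**Figure D1:**
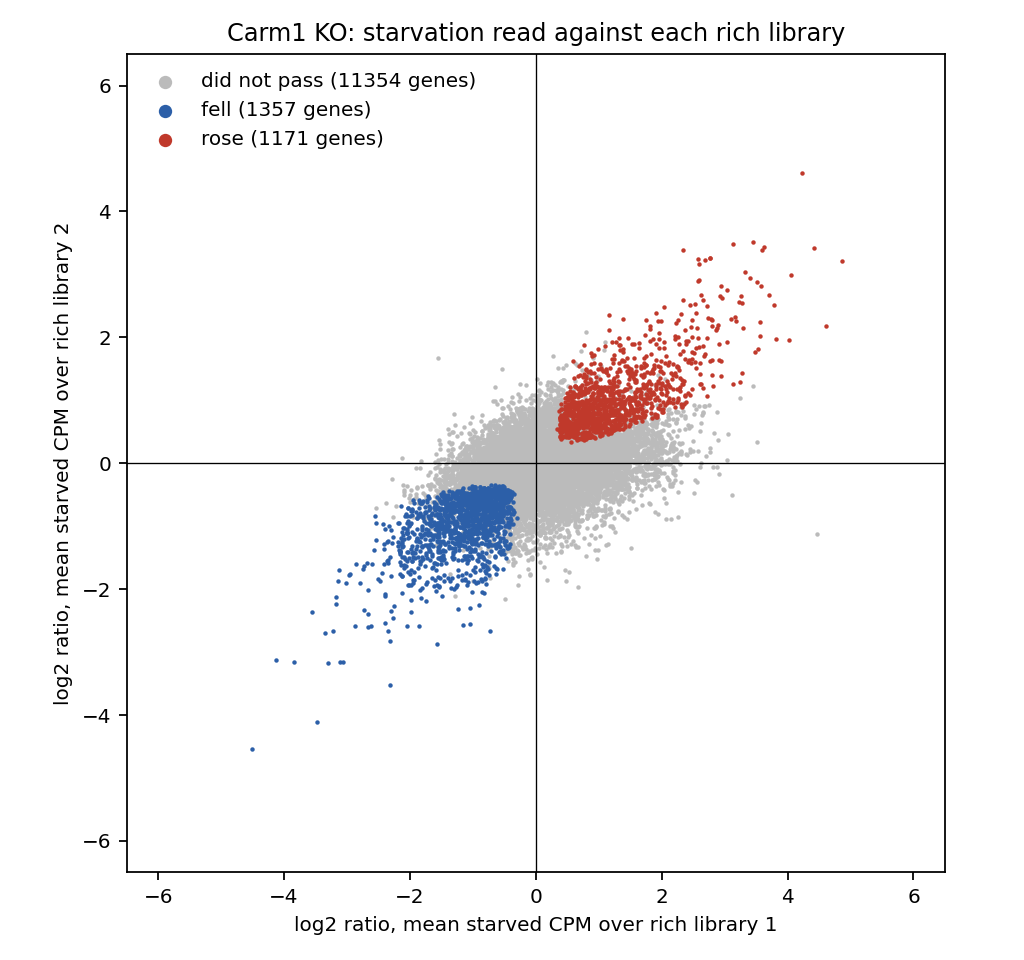
Each point is 1 of 13882 genes, with the log2 ratio of the mean starved CPM to rich library 1 on the horizontal axis and to rich library 2 on the vertical axis (0.5 CPM added to each), red where the gene rose, blue where it fell and grey otherwise. The coloured points lie in the upper right and lower left of the plot, where both ratios have the same sign, and the grey cloud is stretched along the horizontal axis by rich library 1.

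The largest rises joined a matricellular pair to stress genes. Cyr61, which encodes a secreted matricellular protein of the CCN family, went from 47.3 and 36.1 CPM to 922 and 870.2 CPM (log2 fold change 4.43 ± 0.17, adjusted p 0.000117). Ctgf, its close relative in the CCN family, went from 11.2 and 10.8 to 131 and 125 CPM (3.54 ± 0.13). For both genes the rich libraries stood close together and far below the starved ones. Ppp1r15a, the GADD34 subunit that brings a phosphatase to eIF2-alpha, rose from 15.5 and 31.3 to 337 and 345 CPM (3.84 ± 0.32). Gadd45a, a growth arrest gene, rose from 19.7 and 22.7 to 258 and 242 CPM (3.55 ± 0.15). Rnd1, a small GTP-binding protein that loosens actin fibres, rose from 10.2 and 7.93 to 90.6 and 96.2 CPM (3.38 ± 0.16). No rich library came within 5-fold of a starved one for any of these 5 genes. At lower levels, Tmem171, a membrane protein, was at 0 and 0.278 CPM in the rich and 5.78 and 4.69 CPM in the starved libraries. Nppb, the B-type natriuretic peptide, moved from 0.246 and 1.07 to 12.5 and 11.4 CPM, and Itga2, an integrin that binds collagen, from 1.11 and 0.278 to 7.86 and 7.40 CPM. S100a7a, a small calcium-binding protein, was at 0.984 and 1.21 and then 17.8 and 17 CPM, and Cyp1a1, the cytochrome induced through the aryl hydrocarbon receptor, at 0.492 and 0.464 and then 4.97 and 6.28 CPM. The rich levels of these 5 genes were under 2 CPM, so their folds are loose, though all 5 rose. Ptpn22, a tyrosine phosphatase, completed the set with 3.69 and 2.46 and 27.4 and 28.5 CPM, and Car6, a secreted carbonic anhydrase, with 0.492 and 1.53 and 13.2 and 11.8 CPM. Of the 12 genes given here as changed, all kept the call without either rich library, 9 without starved library 1 and 9 without starved library 2.

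The largest falls included a glucose-responsive gene, mitophagy and matrix genes. Txnip, which encodes an arrestin that binds thioredoxin and curbs glucose uptake, dropped from 141 and 144 to 5.09 and 6.28 CPM (log2 fold change -4.65 ± 0.17, adjusted p 0.000117), with the rich libraries nearly equal. Bnip3, a receptor for mitophagy, went from 212 and 105 to 12.1 and 11.2 CPM (-3.77 ± 0.33). Dnm3os, the host RNA of a microRNA cluster, went from 143 and 62.8 to 12.7 and 10.8 CPM (-3.12 ± 0.37), and its rich libraries differed by over 2-fold. Ptgfr, the prostaglandin F receptor, fell from 80.4 and 54.3 to 8.54 and 7.70 CPM. Prelp, a leucine-rich matrix proteoglycan, fell from 30.4 and 31.4 to 2.81 and 3.36 CPM. Slfn9, a Schlafen family member, fell from 285 and 149 to 32.6 and 29.8 CPM. In these 3 genes too the 2 groups stood far apart whichever rich library is read. The smaller transcripts of the set were Nrep, a neuronal regeneration protein, at 9.84 and 5.94 CPM and then 0.321 and 0.129 CPM, and Ccl11, the eotaxin chemokine, at 7.14 and 6.45 CPM and then 0.201 and 0.344 CPM. Trp63, a transcription factor of epithelial progenitors, went from 14.9 and 12.1 to 1.52 and 1.68 CPM. Cd33, a sialic acid-binding receptor of myeloid cells, went from 16.5 and 10.3 to 1.12 and 1.20 CPM. The 10 leukocyte markers summed to 33.1 and 29.3 CPM in the rich and 19.7 and 18.6 CPM in the starved libraries, with 5 of the 10 below 1 CPM in all 4, and the part of such cells in the fall of Cd33 was not tested. The call was kept by all 10 of these changed genes without either rich library, by 8 without starved library 1 and by 7 without starved library 2.

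**Figure D2:**
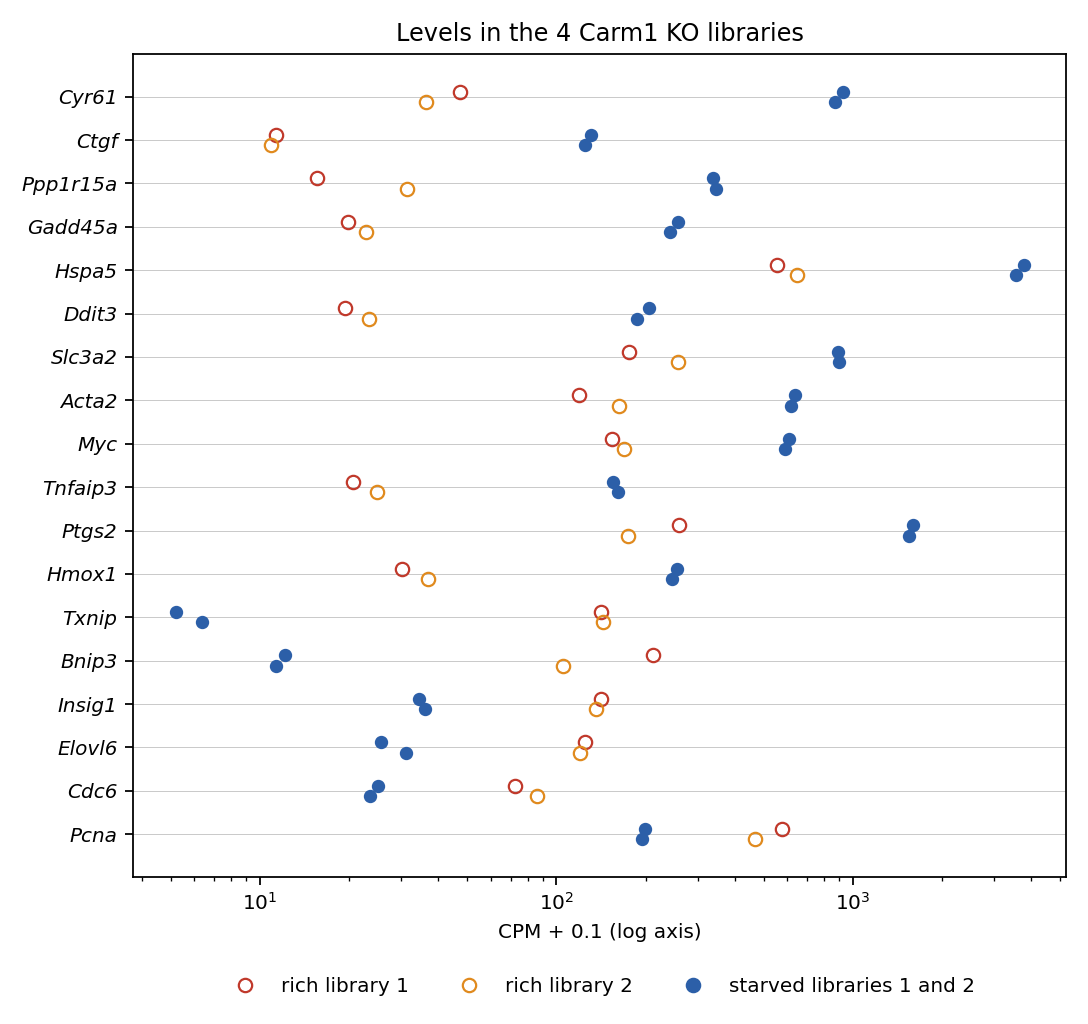
Levels of 18 named genes in CPM on a log axis (0.1 CPM added), 1 row per gene, with open circles for rich libraries 1 (red) and 2 (orange) and filled blue circles for the 2 starved libraries. The starved circles of each gene lie close together, and the rich pair is tight for Cyr61, Ctgf and Txnip and spread for Ppp1r15a and Bnip3.

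MondoA and ChREBP are transcription factors through which genes read glucose. The carbohydrate response element, searched as CACGNG and CNCGNG with 5 bases of any kind between them on both strands of the 250 bases before the start, occurred in 0.292% of 27025 RefSeq mouse promoters (GRCm38.p6) and in 1 of 8 promoters of this list, that of Txnip. That stretch is shown because Txnip had one of the steepest falls of all genes, on the plus strand at chr3:96557847-96557916, with the element in capitals:
Txnip: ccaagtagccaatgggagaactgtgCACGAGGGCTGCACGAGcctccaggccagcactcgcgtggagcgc
The letters describe the window and do not show that a factor was bound. Promoters of 1 chromosome were left out of this and the later searches, so genes on it are not among the promoters counted. Of 9 genes of the list, 3 fell and 1 rose (median log2 change -0.29, against 0.00 over all genes). The counts were 1 higher and 5 lower without rich library 1, 3 and 4 without rich library 2, with medians of -0.43 and -0.11. Arrdc4 and Arrdc3, arrestins related to Txnip, went from 6.64 and 8.35 to 2.13 and 2.97 CPM (-1.57 ± 0.27) and from 77.3 and 62.3 to 26.1 and 29.4 CPM (-1.33 ± 0.16). Klf10, a Kruppel-like repressor, was the member that rose, from 76.0 and 95.0 to 122 and 129.9 CPM (0.55 ± 0.15, call lost in 12 of 19 alternatives, 0.43 to 0.73).

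Of 26 genes of glycolysis and glucose uptake, 7 fell and 0 rose, with a median log2 change of -0.26. The direction of that median rested on the rich libraries: it was -0.46 without rich library 1, where 17 members fell and 4 rose, and 0.14 without rich library 2, where 9 fell and 9 rose. Among the genes that fell were all 3 phosphofructokinase genes, which set the committed step. Pfkl went from 108 and 208 to 53.2 and 57.6 CPM (-1.52 ± 0.28) and Pfkm from 41.5 and 59.5 to 21.5 and 21.7 CPM (-1.23 ± 0.19). Pfkp, the platelet form, went from 124 and 122 to 89.9 and 90.9 CPM (-0.45 ± 0.11, call lost in 12 of 19 alternatives, -0.50 to -0.42). The phosphoglycerate mutase Pgam1 fell from 795 and 971 to 519.6 and 505 CPM (-0.79 ± 0.13). Slc16a3, the MCT4 transporter that exports lactate, fell from 12.1 and 30.2 to 3.81 and 3.61 CPM (-2.53 ± 0.42). For each of these 5 genes, as for every gene called lower, both starved libraries were below both rich ones. Pkm, the pyruvate kinase, stood at 3238 and 3724 and 2759.9 and 2427 CPM without passing the test (adjusted p 0.0851), and Gapdh, whose rich libraries read 3271 and 5998 CPM, had its starved libraries between them at 4866 and 4436 CPM. When 1 library was left out, all 5 changed genes named here still passed without either rich library, 0 without starved library 1 and 0 without starved library 2.

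Few pyruvate, pentose and hexosamine genes passed the test. Of 15 genes of pyruvate fate and gluconeogenesis, 3 fell and none rose by the test (5 higher and 6 lower without rich library 1, 5 and 7 without rich library 2). Pdk1, a kinase that shuts pyruvate dehydrogenase, dropped from 73.8 and 71.3 to 18.0 and 19.4 CPM (-1.95 ± 0.13, adjusted p 0.000644). The phosphatase gene Pdp2, which reverses that step, fell from 23.0 and 23.7 to 13.3 and 15.1 CPM (-0.72 ± 0.19, call lost in 11 of 19 alternatives, -0.81 to -0.64). None of 8 pentose phosphate genes passed (2 higher and 3 lower without rich library 1, 5 and 1 without rich library 2, with medians of -0.05 and 0.60), and their oxidative-branch enzyme G6pdx read 128 and 139.7 and 107 and 112 CPM. Of 12 hexosamine and O-GlcNAc genes, 2 rose and 1 fell (6 higher and 1 lower without rich library 1, 5 and 5 without rich library 2). Gnpnat1 and Pgm3, successive enzymes towards UDP-GlcNAc, rose from 36.8 and 27.9 to 54.6 and 54.1 CPM (0.76 ± 0.16) and from 24.7 and 25.4 to 36.1 and 35.5 CPM (0.51 ± 0.14, call lost in 14 of 19 alternatives, 0.46 to 0.54). Mgea5, the O-GlcNAcase that removes the sugar from proteins, fell from 169 and 140.4 to 92.9 and 90.1 CPM (-0.76 ± 0.13). Among the 5 changed genes just named, the call survived in all without either rich library, in 1 without starved library 1 and in 1 without starved library 2.

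Among targets of the hypoxia-inducible factor more fell than rose. Of 19 such genes 10 fell and 2 rose (median log2 change -0.79); without rich library 1 the counts were 12 and 3, and without rich library 2 10 and 5. Egln1, the prolyl hydroxylase that marks the factor for degradation, fell from 117 and 141 to 62.4 and 55.5 CPM (-1.13 ± 0.14). Mxi1, an antagonist of MYC, fell from 41.7 and 43.0 to 18.6 and 18.8 CPM (-1.18 ± 0.13), and Bnip3l, the relative of Bnip3, from 117 and 122 to 70.8 and 72.0 CPM (-0.74 ± 0.11). Ndrg1, also a stress-induced gene outside this pathway, rose from 127 and 145 to 603 and 572 CPM (2.11 ± 0.13). Ero1l, an oxidase of the ER that is also a target of ER stress, was the other riser, at 201 and 158 and 259.8 and 264 CPM (0.54 ± 0.15, adjusted p 0.046, call lost in 15 of 19 alternatives, 0.39 to 0.75). Vegfa, the growth factor of vessels, read 359 and 432 and 483 and 471 CPM and did not pass (adjusted p 0.205). Of the 5 genes given here as changed, all kept the call without either rich library, 1 without starved library 1 and 1 without starved library 2.

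Most genes of the integrated stress response rose. Its effector ATF4 binds composite C/EBP-ATF elements, searched as TGATGNAA on both strands of the same 250 bases. The letters occurred in 3.53% of all promoters and in 8 of 25 promoters of the ATF4 list (5 of the 15 matched that rose). They occurred in 3 of 13 promoters of the tRNA synthetases (3 of the 8 matched that rose). Among amino acid transporters they occurred in 2 of 17 promoters (0 of the 6 matched that rose). The 4 stretches below are shown because their genes rose and hold the letters (capitals). They lie at chr8:94386294-94386353, chr8:111033707-111033766, chr6:55037941-55038000 (plus strand) and chr15:11399659-11399718 (minus strand) of GRCm38.p6:
Herpud1: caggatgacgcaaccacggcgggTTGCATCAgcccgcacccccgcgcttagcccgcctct
Aars: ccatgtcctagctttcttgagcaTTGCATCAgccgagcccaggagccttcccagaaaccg
Gars: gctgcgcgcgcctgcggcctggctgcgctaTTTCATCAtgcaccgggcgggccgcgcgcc
Tars: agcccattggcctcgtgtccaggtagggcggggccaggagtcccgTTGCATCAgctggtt
In all 4 the capitals are the reverse complement of the letters searched. Of 27 ATF4 and integrated stress genes 17 rose and 1 fell, the one that fell being Txnip, with a median log2 change of 0.88 (0.86 without rich library 1 and 1.64 without rich library 2). Atf4 itself rose from 249 and 432 to 762 and 778 CPM (1.18 ± 0.25, adjusted p 0.0192), and its call was lost without any 1 wild-type or starved library (0.86 to 1.64 over the alternatives). Ddit3, the CHOP factor of prolonged stress, rose from 19.2 and 23.3 to 205 and 187 CPM (3.20 ± 0.16). The sulphur amino acid enzyme Cth rose from 30.6 and 46.1 to 183 and 187 CPM (2.26 ± 0.20). Asns, which makes asparagine, was at 324 and 245 and 514 and 511 CPM (0.85 ± 0.15). As for every gene called higher, all 4 had both starved libraries above both rich libraries, and Atf4 had the widest rich pair. The call was kept by all 8 of these changed genes without either rich library, by 3 without starved library 1 and by 4 without starved library 2.

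Most genes that charge tRNAs rose, and fewer of those that import amino acids did. Of 20 cytosolic tRNA synthetases 13 rose and none fell by the test, with a median log2 change of 0.78 (18 higher and 0 lower without rich library 1, 19 and 0 without rich library 2). Tars, Gars and Aars, which charge threonine, glycine and alanine tRNAs and whose promoter stretches are given above, went from 362 and 352 to 741 and 695 CPM (1.01 ± 0.11), from 420.5 and 480.3 to 898 and 865 CPM (0.97 ± 0.13) and from 647 and 626 to 1183 and 1132 CPM (0.86 ± 0.12). Their rich libraries were close to each other, and the rises were seen against either of them. Of 22 amino acid transporters 8 rose and 2 fell (median 0.12, and 0.62 without rich library 2). The counts were 8 higher and 3 lower without rich library 1, 12 and 2 without rich library 2. Slc3a2 and Slc7a5, the 2 chains of the LAT1 exchanger, rose from 176 and 258 to 889 and 895 CPM (2.04 ± 0.19) and from 141 and 234 to 519.6 and 504 CPM (1.45 ± 0.22). Slc7a1, which imports arginine and lysine, rose from 89.3 and 127 to 304 and 323 CPM (1.53 ± 0.18). Slc1a3, a glutamate and aspartate carrier, fell from 89.8 and 60.6 to 20.9 and 20.9 CPM (-1.84 ± 0.21). Of 14 serine and folate enzymes 3 rose and 2 fell (8 higher and 3 lower without rich library 1, 9 and 3 without rich library 2). Mthfd2, a mitochondrial folate enzyme, rose from 135 and 186 to 343 and 350.1 CPM (1.11 ± 0.16), and Psph, the last step of serine synthesis, from 16 and 29.0 to 67.8 and 73.3 CPM (1.63 ± 0.25). Tyms, which makes thymidylate, fell from 109 and 104 to 73.9 and 71.6 CPM (-0.55 ± 0.11, call lost in 10 of 19 alternatives, -0.61 to -0.50). When 1 library was left out, all 10 changed genes named here still passed without either rich library, 3 without starved library 1 and 4 without starved library 2.

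Most genes of the ER chaperone list rose. The ER stress response element, searched as CCAAT and CCACG with 9 bases of any kind between them on both strands, occurred in 0.122% of all promoters and in 9 of 23 promoters of the ER list (5 of the 14 matched that rose). Not all of the most changed genes held it, and Herpud1 had no match in the window. Stretches of Hspa5 at chr2:34771990-34772069 and Creld2 at chr15:88819496-88819565, both plus strand of GRCm38.p6, are shown because their genes were among the most changed that hold the element:
Hspa5: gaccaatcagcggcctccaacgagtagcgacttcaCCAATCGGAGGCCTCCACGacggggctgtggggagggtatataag
Creld2: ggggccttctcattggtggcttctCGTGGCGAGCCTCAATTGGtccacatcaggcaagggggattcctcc
The element runs forward in Hspa5 and as its reverse complement in Creld2. Of the 27 genes of this ER list 18 rose and none fell by the test, with a median log2 change of 0.90 (0.98 without rich library 1 and 0.91 without rich library 2). Hspa5, the chaperone BiP that senses unfolded protein, rose from 554 and 647 to 3775 and 3534 CPM (2.61 ± 0.14, adjusted p 0.000397). Herpud1, which helps to clear proteins from the ER, rose from 42.3 and 56.4 to 255 and 247 CPM (2.34 ± 0.17). Xbp1, the factor spliced by IRE1, rose from 34.9 and 45.4 to 126 and 134 CPM (1.69 ± 0.15). Hspa5 was among the 10 genes with the most counts after starvation, counts that are not scaled for gene length. Creld2 and Manf, secreted products of ER stress, went from 31.9 and 46.7 to 136 and 142 CPM (1.81 ± 0.19) and from 91.1 and 80.4 to 238 and 219.6 CPM (1.42 ± 0.13). Pdia4, a disulfide isomerase, rose from 342 and 307 to 689 and 668 CPM (1.06 ± 0.12). The calcium-binding chaperone Calr rose from 1368 and 1026 to 2473 and 2216 CPM (0.97 ± 0.17). Hsp90b1, the ER form of HSP90, read 2278 and 1440.5 and 3014 and 2783 CPM and did not pass (adjusted p 0.0803). Among the 7 changed genes just named, the call survived in all without either rich library, in 6 without starved library 1 and in 6 without starved library 2.

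Among actin and smooth muscle genes more rose than fell. SRF binds the CArG box, searched by that name on both strands. The box occurred in 1.4% of all promoters and in 6 of 25 promoters of the contractile list. All 6 were among the 13 matched genes that rose. Of the AP-1 and EGR list, 0 of the 19 promoters matched held the box. That list had 25 tested genes, and those without a matched promoter were not searched. Stretches of Fhl2 (chr1:43196822-43196881, minus strand) and Myl9 (chr2:156775279-156775338, plus strand) of GRCm38.p6 are shown for the box in capitals:
Fhl2: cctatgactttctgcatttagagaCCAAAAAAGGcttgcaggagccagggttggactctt
Myl9: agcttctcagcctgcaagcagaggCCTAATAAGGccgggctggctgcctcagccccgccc
Of 28 contractile genes of the SRF programme 15 rose and 2 fell (median log2 change 0.65; 0.55 without rich library 1 and 0.96 without rich library 2). Acta2, the smooth muscle actin, rose from 119 and 163 to 636 and 618 CPM (2.15 ± 0.17, adjusted p 0.000907). Tagln, which encodes the actin-binding protein transgelin, rose from 23.9 and 39.1 to 179 and 182 CPM (2.51 ± 0.23). Fhl2, a LIM protein that follows SRF activity, rose from 17 and 30.2 to 148 and 152 CPM (2.65 ± 0.26). In all 3 the starved libraries exceeded either rich library by more than 3-fold. Zyx, the focal adhesion protein zyxin, rose from 269 and 446 to 1292 and 1294 CPM (1.85 ± 0.23). Myh9, the non-muscle myosin heavy chain, rose from 1539 and 2029 to 3664 and 3429 CPM (0.99 ± 0.16), and Actg1, the cytoplasmic gamma actin, from 1333 and 1777 to 2850.1 and 2469 CPM (0.77 ± 0.17). Flna, the filamin that crosslinks actin, read 1081 and 2083 and 2792 and 2890.1 CPM and missed the threshold (adjusted p 0.0784). Low transcripts rose as well, Myl9, a regulatory myosin light chain, from 0.246 and 0.742 to 5.13 and 4.69 CPM. Beside this group, Tnnt2 of the skeletal muscle markers rose from 185 and 192 to 328 and 292 CPM (0.72 ± 0.19, call lost in 13 of 19 alternatives, 0.62 to 0.81), while Myod1, Myog and Myf5 were at 0. Of the 8 genes given here as changed, all kept the call without either rich library, 5 without starved library 1 and 5 without starved library 2.

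Among targets of YAP and TEAD more rose than fell. The TEAD site, searched as GGAATG on both strands, occurred in 12.6% of all promoters and in 12 of 19 promoters of the list. Of the 10 matched genes that rose, 6 held it. Stretches are shown for 3 of the most changed members that hold the letters. They are Cyr61 (chr3:145650056-145650115, minus strand), Ankrd1 (chr19:36119955-36120064, minus strand) and Crim1 (chr17:78200138-78200197, plus strand) of GRCm38.p6:
Cyr61: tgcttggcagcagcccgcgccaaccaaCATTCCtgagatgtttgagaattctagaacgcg
Ankrd1: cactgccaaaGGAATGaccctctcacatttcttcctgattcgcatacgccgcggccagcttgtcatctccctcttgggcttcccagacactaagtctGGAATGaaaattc
Crim1: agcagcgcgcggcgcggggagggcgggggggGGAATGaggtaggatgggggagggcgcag
Cyr61 is listed as Ccn1 in RefSeq. Ankrd1 holds the letters in 2 places and the other 2 genes in 1. No match overlapped a match of another of the 7 motifs searched in the 13 promoters printed from. Of 26 YAP and TEAD targets 14 rose and 1 fell, with a median log2 change of 1.01 (0.88 without rich library 1 and 1.35 without rich library 2). Besides Cyr61, whose values are given with the largest rises, Ankrd1, an ankyrin-repeat protein of stretched muscle, rose from 115 and 72.4 to 716 and 671 CPM (2.89 ± 0.22). F3, the tissue factor that starts coagulation, rose from 20.3 and 13.8 to 138 and 130.3 CPM (2.99 ± 0.22). Dlc1, a GTPase-activating protein, rose from 24.6 and 22.7 to 74.4 and 72.8 CPM (1.64 ± 0.12), and Crim1, which holds BMPs at the cell surface, from 61.3 and 59.6 to 146 and 141 CPM (1.25 ± 0.11). None of these 4 had overlapping groups, which holds for every called gene. The member that fell was Birc5, the mitotic protein survivin, at 151 and 141 and 84.7 and 85.8 CPM. Axl, a receptor tyrosine kinase, read 407 and 844 and 1280.1 and 1293 CPM and missed the threshold (adjusted p 0.0535). The call was kept by all 6 of these changed genes without either rich library, by 5 without starved library 1 and by 5 without starved library 2.

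Genes of TGF-beta signalling went both ways, with 6 of 29 higher and 5 lower and a median log2 change of 0.01 (11 higher and 11 lower without rich library 1, 13 and 10 without rich library 2). The activin subunit Inhba rose from 49.7 and 54.3 to 150.1 and 150.0 CPM (1.53 ± 0.12). Tgfbr1, the type I receptor, fell from 128 and 82.0 to 38.3 and 37.2 CPM (-1.48 ± 0.21), and Tgfbi, a secreted target, from 70.1 and 96.0 to 23.3 and 22.8 CPM (-1.85 ± 0.18). When 1 library was left out, all 3 changed genes named here still passed without either rich library, 2 without starved library 1 and 2 without starved library 2.

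Most collagens that passed were lower: 6 of 22 fell and 2 rose (median -0.41). That median was -0.76 without rich library 1 and 0.21 without rich library 2, so its direction depended on which rich library was read. Col3a1 went from 529.6 and 853 to 258 and 269 CPM (-1.39 ± 0.22), a fall seen against either rich library, and Col8a1, a short-chain collagen, rose from 70.4 and 75.2 to 133 and 146 CPM (0.93 ± 0.12). Col1a2, the second chain of collagen I, read 1443 and 2782 and 1607 and 1612 CPM, its starved libraries lying between the rich ones. Of 27 other matrix genes 3 rose and 6 fell (7 higher and 10 lower without rich library 1, 9 and 10 without rich library 2). Thbs1, the adhesive glycoprotein thrombospondin, rose from 451 and 512 to 1523 and 1501 CPM (1.65 ± 0.12), and Tnc, the matrix protein tenascin C, from 148 and 154 to 421 and 419 CPM (1.48 ± 0.12). Lox, which crosslinks collagen, fell from 1313 and 1157 to 771 and 751 CPM (-0.70 ± 0.12), as did its relative Loxl2, from 56.4 and 69.9 to 29.0 and 28.1 CPM (-1.15 ± 0.14). Of 20 proteases and inhibitors 5 rose and 3 fell (6 higher and 6 lower without rich library 1, 8 and 5 without rich library 2), among them Timp3, an inhibitor of metalloproteinases, from 498 and 325 to 916 and 859 CPM (1.11 ± 0.20), and Plat, the tissue plasminogen activator, which fell from 69.2 and 73.7 to 41.4 and 40.7 CPM (-0.80 ± 0.12). Among the 8 changed genes just named, the call survived in all without either rich library, in 2 without starved library 1 and in 2 without starved library 2.

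Some immediate early factors and most of their brakes rose. Of 25 AP-1 and EGR genes 11 rose and none fell by the test (median log2 change 0.80; 0.34 without rich library 1 and 1.42 without rich library 2). Myc rose from 154 and 169 to 607 and 592 CPM (1.89 ± 0.12, adjusted p 0.000558). Jun and Fosl1, partners in AP-1, rose from 129 and 144 to 393 and 383 CPM (1.50 ± 0.12) and from 192 and 160.1 to 514 and 479 CPM (1.50 ± 0.14). Egr1, a zinc finger factor, rose from 80.2 and 76.2 to 169.9 and 165 CPM (1.10 ± 0.12). The rich libraries of these 4 genes stood close together. Of 20 genes of MAP kinase feedback 14 rose and none fell (median 1.12), with 15 higher and 1 lower without rich library 1, 16 and 0 without rich library 2. Dusp5, a nuclear phosphatase of ERK, rose from 7.88 and 12.8 to 76.3 and 80.1 CPM (2.89 ± 0.24). Spry2, an inhibitor of receptor signalling, rose from 10.8 and 11.8 to 31.2 and 31.9 CPM (1.48 ± 0.15), and Phlda1 from 82.2 and 75.8 to 185 and 166 CPM (1.15 ± 0.13). Of 14 Kruppel-like factors 7 rose and none fell (9 higher and 1 lower without rich library 1, 9 and 2 without rich library 2), with Klf6 from 173 and 105 to 279.7 and 279.9 CPM (1.01 ± 0.22) and Klf4 from 44.2 and 134 to 309.9 and 316 CPM (1.81 ± 0.44). Klf4 had rich libraries 3-fold apart. Of the 9 genes given here as changed, all kept the call without either rich library, 6 without starved library 1 and 7 without starved library 2.

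Most NF-kB subunits, feedback inhibitors and inflammatory targets rose. Of 32 genes 22 rose and 3 fell, with a median log2 change of 1.16 (1.01 without rich library 1 and 1.20 without rich library 2). The AP-1 site, searched as TGANTCA on both strands, occurred in 6.87% of all promoters and in 5 of 26 promoters of this list. Among the 17 matched genes of this list that rose 3 held the site. Of the AP-1 and EGR list 0 of the 19 matched promoters did, its other tested genes not being searched. A stretch of Tnfaip3 at chr10:19015511-19015570 (minus strand, GRCm38.p6) is shown because Tnfaip3 had the smallest p of the list:
Tnfaip3: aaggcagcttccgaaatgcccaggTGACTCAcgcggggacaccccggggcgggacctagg
The 7 capitals read the same pattern on both strands. Tnfaip3, the A20 enzyme that shuts NF-kB off, rose from 20.4 and 24.7 to 155 and 162 CPM (2.81 ± 0.15, adjusted p 0.000397). Ptgs2, the inducible cyclooxygenase, rose from 259.6 and 175 to 1594 and 1541 CPM (2.85 ± 0.20). Hbegf, a ligand of the EGF receptor, rose from 18.3 and 31.4 to 232 and 216 CPM (3.15 ± 0.26). Birc3, an inhibitor of apoptosis, rose from 13 and 13.5 to 41.6 and 39.1 CPM (1.61 ± 0.15). In each the starved libraries agreed closely and stood over 2-fold above either rich library. Csf1, the macrophage growth factor, was already at 480.3 and 462 CPM and rose to 1066 and 1071 CPM (1.18 ± 0.11), and Csf2, the granulocyte-macrophage factor, rose from 6.77 and 4.68 to 51.7 and 46.5 CPM (3.13 ± 0.26). C3 of complement read 1107 and 1217 and 849 and 855 CPM and did not pass (adjusted p 0.073). The call was kept by all 6 of these changed genes without either rich library, by 6 without starved library 1 and by 6 without starved library 2.

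Of 16 chemokines 5 rose and 2 fell (5 higher and 4 lower without rich library 1, 5 and 3 without rich library 2). Ccl2, which draws monocytes, rose from 176 and 169 to 427 and 403 CPM (1.26 ± 0.12) and its neighbour Ccl7 from 122 and 135 to 293 and 251 CPM (1.08 ± 0.15). Cxcl1, which draws neutrophils, rose from 127 and 139 to 198 and 198 CPM (0.57 ± 0.12, call lost in 10 of 19 alternatives, 0.52 to 0.65). Cxcl5, of the same receptor group as Cxcl1, fell from 58.1 and 58.3 to 11.8 and 11.6 CPM (-2.31 ± 0.17). Interferon-stimulated genes went down where they passed, 10 of 34 lower and 1 higher (median -0.55), with 2 higher and 14 lower without rich library 1, 3 and 13 without rich library 2. Stat2, a subunit of the interferon-activated factor, fell from 29.4 and 32.2 to 4.65 and 5.68 CPM (-2.58 ± 0.17). Gbp2, an interferon-induced GTPase, fell from 50.1 and 36.3 to 15 and 13.7 CPM (-1.58 ± 0.23). The one riser was Irf1, a transcription factor also driven by NF-kB, from 34.5 and 44 to 58.8 and 59.5 CPM (0.59 ± 0.15, call lost in 11 of 19 alternatives, 0.45 to 0.79). When 1 library was left out, all 7 changed genes named here still passed without either rich library, 3 without starved library 1 and 3 without starved library 2.

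Most sterol genes fell. Of 24 genes of cholesterol synthesis and uptake 15 fell and none rose by the test, with a median log2 change of -0.94; 23 fell without rich library 1 and 16 without rich library 2, where 2 rose. Insig1, which retains the sterol sensor SCAP in the ER, fell from 141 and 136 to 34.4 and 36.1 CPM (-1.98 ± 0.12, adjusted p 0.000509). Acat2, the first enzyme of the route, fell from 172 and 193 to 48.8 and 48.7 CPM (-1.91 ± 0.12). Idi1, an isomerase of the mevalonate arm, fell from 209 and 146 to 41.7 and 42.0 CPM (-2.08 ± 0.18). Late enzymes fell by as much, Nsdhl from 157 and 103 to 25.4 and 30.5 CPM (-2.22 ± 0.22) and Hsd17b7 from 70.6 and 52.2 to 15.3 and 16.9 CPM (-1.93 ± 0.19). Cyp51, a lanosterol demethylase, went from 639.5 and 374 to 221 and 209 CPM (-1.24 ± 0.23). Early and late steps of the pathway were thus lower in both starved libraries than in either rich one, as every gene called lower was. Srebf2, which encodes the factor that drives these genes, read 155 and 384 and 305 and 321 CPM, with the starved libraries between the rich ones. The sterol response element, searched as TCACNCCAC on both strands, occurred in 1.04% of all promoters and in 0 of the 16 promoters matched from this list, which says only that these letters are not in that window. Among the 6 changed genes just named, the call survived in all without either rich library, in 5 without starved library 1 and in 5 without starved library 2.

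Of 19 fatty acid synthesis genes 8 fell and 2 rose (median -0.30), with 2 higher and 11 lower without rich library 1, 7 and 9 without rich library 2. The elongase Elovl6 fell from 125 and 120.2 to 25.6 and 30.9 CPM (-2.12 ± 0.14). Scd2 and Scd1, desaturases that make oleate, fell from 1803 and 2267 to 590.1 and 583 CPM (-1.79 ± 0.15) and from 362 and 310.1 to 185 and 176 CPM (-0.90 ± 0.13). Fasn, the synthase itself, read 387 and 853 and 646 and 714 CPM and did not pass (adjusted p 0.822), its starved libraries lying between the rich ones. Of 21 genes of fatty acid oxidation 2 rose and 2 fell (3 higher and 7 lower without rich library 1, 10 and 5 without rich library 2). The main counts of the oxidation list were near the shares over all genes, 8.44% higher and 9.78% lower. Acot2, a mitochondrial thioesterase, rose from 3.69 and 4.68 to 22.2 and 23.1 CPM (2.41 ± 0.21). Plin2, which coats lipid droplets, rose from 95.0 and 156 to 228 and 221 CPM (0.84 ± 0.22, call lost in 10 of 19 alternatives, 0.55 to 1.25). Cpt1a, the gate of mitochondrial import, fell from 141 and 168 to 95.4 and 93.1 CPM (-0.72 ± 0.13). Of the 6 genes given here as changed, all kept the call without either rich library, 3 without starved library 1 and 3 without starved library 2.

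Cell division genes fell widely, and the replication list had the largest share of fallers among the lists read here. Of 42 DNA replication genes 30 fell and 1 rose, with a median log2 change of -0.91 (-0.85 without rich library 1 and -0.75 without rich library 2). Pcna, the sliding clamp of the replication fork, fell from 578 and 468 to 199 and 194 CPM (-1.41 ± 0.14). Cdc6, which loads the helicase, fell from 72.1 and 86.0 to 24.9 and 23.4 CPM (-1.71 ± 0.14). Rrm2, the ribonucleotide reductase subunit, fell from 218 and 228 to 76.8 and 79.5 CPM (-1.51 ± 0.11, adjusted p 0.0008). Lig1, the ligase of lagging-strand fragments, fell from 235 and 215 to 102 and 97.5 CPM (-1.17 ± 0.12). These 4 genes ended more than 2-fold below either rich level. Of 34 mitosis genes 19 fell and none rose by the test (median -0.65), with 2 higher and 25 lower without rich library 1, 6 and 24 without rich library 2. Top2a, the topoisomerase that untangles chromosomes, fell from 1085 and 726 to 418 and 399 CPM (-1.15 ± 0.19), and Kif2c, a kinesin of the centromere, from 82.6 and 84.0 to 41.9 and 39.2 CPM (-1.04 ± 0.11). Of 23 G1 cyclins and CDK inhibitors 13 fell and 3 rose (3 higher and 14 lower without rich library 1, 7 and 14 without rich library 2). Ccne1 and Cdk2, which form the S-phase kinase, fell from 85.8 and 69.9 to 16.8 and 14.8 CPM (-2.29 ± 0.19) and from 53.9 and 61.3 to 15.9 and 15.7 CPM (-1.87 ± 0.13). E2f7 and E2f8, atypical E2F factors, fell from 69.6 and 51.6 to 18.7 and 17.2 CPM (-1.75 ± 0.18) and from 112 and 85.8 to 31.5 and 36.1 CPM (-1.55 ± 0.18). Ccnd1, the G1 cyclin that mitogens raise, rose from 488 and 492 to 640.0 and 648 CPM (0.39 ± 0.11, adjusted p 0.0456, call lost in 16 of 19 alternatives, 0.34 to 0.41). The call was kept by all 11 of these changed genes without either rich library, by 8 without starved library 1 and by 8 without starved library 2.

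**Figure D3:**
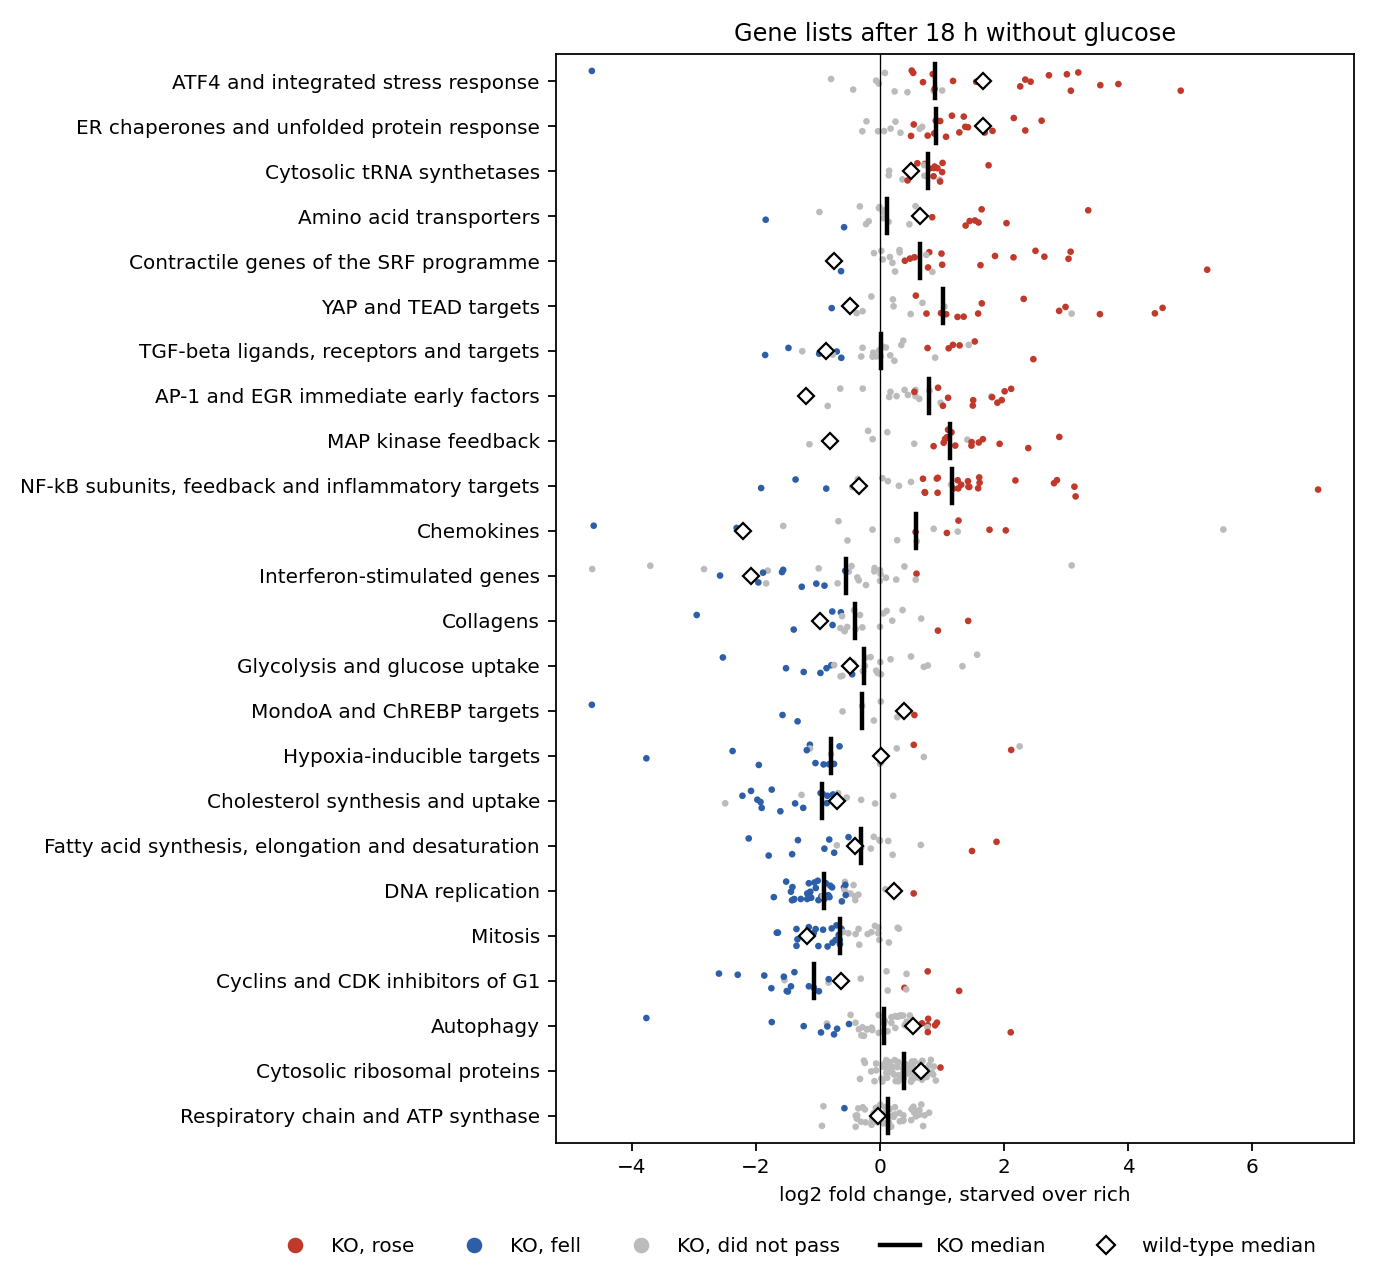
Log2 fold changes of the tested members of 24 gene lists in the knockout, 1 row per list, with coloured points for genes that rose (red) or fell (blue), grey points for the others, a black bar at the list's median and an open diamond at the wild-type median. Replication, mitosis, sterol and hypoxia lists have medians below 0, while the stress, contractile, YAP, feedback and NF-kB lists lie above 0, and the wild-type diamonds of several of these lie on the other side of 0.

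In other stress programmes some members passed, to be read against 8.44% higher and 9.78% lower over all genes. The NRF2 and heat shock counts were not above those shares. Of 24 p53 targets 6 rose and 3 fell (9 higher and 6 lower without rich library 1, 12 and 5 without rich library 2). Plk2, a stress-induced polo-like kinase, rose from 121 and 101 to 606 and 619 CPM (2.46 ± 0.14), and Sesn1, a sestrin that restrains mTORC1, fell from 27.8 and 27.5 to 9.10 and 8.61 CPM (-1.64 ± 0.15). Of 25 NRF2 antioxidant genes 2 rose and 2 fell (6 higher and 12 lower without rich library 1, 8 and 10 without rich library 2). Hmox1, the inducible haem oxygenase, rose from 30.1 and 36.8 to 254 and 246 CPM (2.90 ± 0.14, adjusted p 0.000251), while Gstm1, a glutathione transferase of the same list, fell from 18.3 and 28.6 to 9.30 and 9.60 CPM (-1.32 ± 0.24). Cytosolic chaperones of the heat shock list stayed mostly below the threshold, with 1 of 22 higher and 1 lower (7 higher and 7 lower without rich library 1, 7 and 11 without rich library 2). Hspa8, the constitutive HSC70, read 3830.2 and 3226 and 2949 and 2761 CPM and did not pass (adjusted p 0.178). Of 47 autophagy genes 7 rose and 8 fell (16 higher and 17 lower without rich library 1, 24 and 16 without rich library 2). Sqstm1, the cargo receptor p62, rose from 129 and 252 to 831 and 812 CPM (2.11 ± 0.29), and Atg12, a conjugation factor, from 33.7 and 33.7 to 57.4 and 58.0 CPM (0.78 ± 0.12). Dram1, a lysosomal membrane protein, fell from 43.4 and 29.6 to 10.2 and 11.4 CPM (-1.75 ± 0.24). Of 58 lysosome genes 6 rose and 2 fell, with medians of -0.02 without rich library 1 and 0.34 without rich library 2. Of the risers 5 were subunits of the proton pump. Among them, Atp6v0d1 rose from 29.7 and 40.1 to 58.8 and 60.8 CPM (0.77 ± 0.17, call lost in 10 of 19 alternatives, 0.60 to 1.02). When 1 library was left out, all 8 changed genes named here still passed without either rich library, 3 without starved library 1 and 3 without starved library 2.

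The counts of ribosomal and respiratory genes, like those of several lists above, depended on which rich library was read. Of 74 cytosolic ribosomal protein genes 1 rose and none fell by the test; without rich library 2, 57 rose, and without rich library 1, 27 did. Rpl10a, the one riser, went from 319 and 536 to 864 and 817 CPM (0.97 ± 0.23). Rplp0, of the ribosomal stalk, read 1099 and 2298 CPM in the rich and 2538 and 2339.7 CPM in the starved pair, its starved level being close to that of rich library 2 (adjusted p 0.277). Ribosomal protein genes are short, and the fall of short genes in rich library 1 moves with these values; its part was not tested. Of 52 respiratory chain and ATP synthase genes 1 fell and none rose, but 28 rose without rich library 2 and 5 without rich library 1. Cox7b, a subunit of cytochrome oxidase, fell from 81.1 and 80.0 to 51.9 and 56.2 CPM with near-equal rich libraries (-0.57 ± 0.12, call lost in 10 of 19 alternatives, -0.63 to -0.52). Genes that build ribosomes passed more often, 11 of 30 higher and 1 lower (median 0.52; 0.55 without rich library 1 and 0.43 without rich library 2). Rrs1 and Wdr12, assembly factors of the large subunit, rose from 79.9 and 88.0 to 169 and 166 CPM (1.00 ± 0.13) and from 47.6 and 47.1 to 89.7 and 85.4 CPM (0.89 ± 0.12). Nop56, of the box C/D snoRNP, rose from 399 and 533 to 896 and 871 CPM (0.92 ± 0.16). Of 31 proteasome genes 2 rose and 1 fell (9 higher and 3 lower without rich library 1, 15 and 8 without rich library 2). Among the 5 changed genes just named, the call survived in all without either rich library, in 0 without starved library 1 and in 0 without starved library 2.

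**Figure D4:**
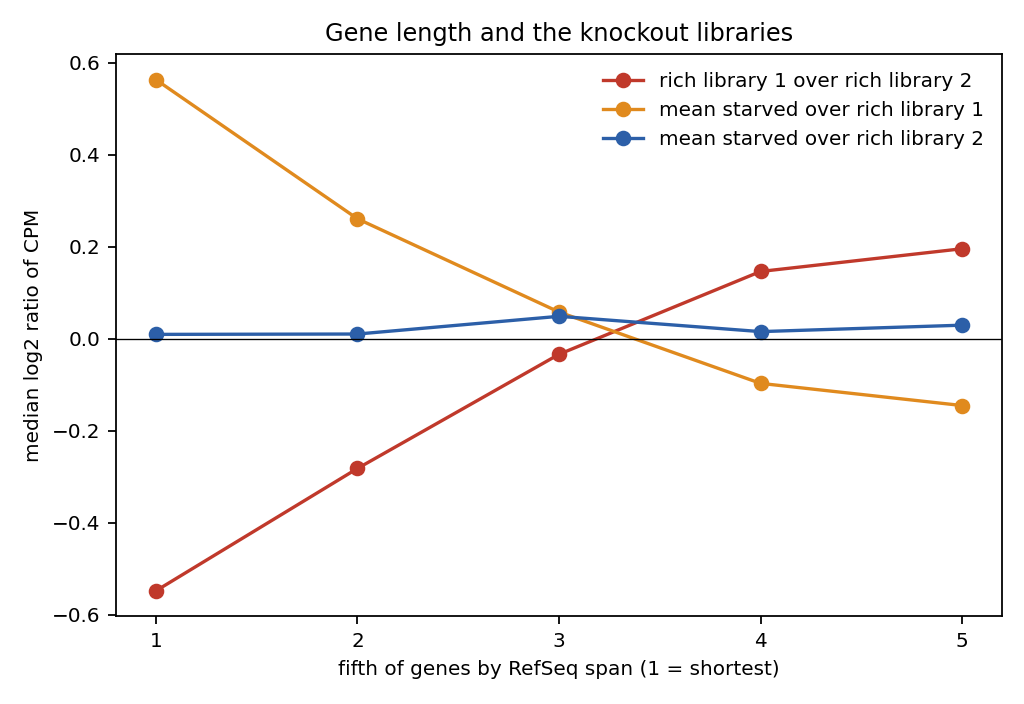
Median log2 ratios over the genes of each of 5 groups of RefSeq gene span, from the shortest to the longest, over 9351 genes with a mean of at least 10 CPM. The line for rich library 1 over rich library 2 climbs from -0.55 to 0.20, the line for starved over rich library 1 goes down from 0.56 to -0.15, and the line for starved over rich library 2 stays between 0.01 and 0.05.

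Other arginine methyltransferases and CARM1 partners were read because the cells lack Carm1. Of 17 genes 5 rose and 1 fell (median 0.21), with 9 higher and 2 lower without rich library 1, 9 and 2 without rich library 2. Prmt5, the main enzyme of symmetric dimethylation, rose from 98.1 and 100.4 to 149 and 144 CPM (0.56 ± 0.12, call lost in 10 of 19 alternatives, 0.51 to 0.60). Prmt6 and Prmt7 rose from 12.4 and 25.3 to 58.6 and 49.2 CPM (1.49 ± 0.31) and from 32.7 and 51.9 to 85.6 and 86.6 CPM (1.02 ± 0.21), and Prmt3 from 48.2 and 43.7 to 73.3 and 80.4 CPM (0.74 ± 0.13). Skp2, the F-box protein that is known to target CARM1 for degradation, fell from 94.0 and 72.4 to 29.8 and 28.9 CPM (-1.50 ± 0.17). Prmt1, which makes asymmetric dimethylarginine, at 123 and 169 and 201 and 199.7 CPM, did not pass (adjusted p 0.101). None of the 17 passed the test of a difference from the wild-type response. Of 19 insulin and IGF genes 3 fell (2 higher and 9 lower without rich library 1, 6 and 9 without rich library 2), with Igf1 from 10.5 and 5.80 to 2.13 and 1.72 CPM (-2.04 ± 0.35), and of 17 clock genes 2 rose and 2 fell (5 higher and 5 lower without rich library 1, 7 and 6 without rich library 2), with Per3 from 19.7 and 16.3 to 4.81 and 5.85 CPM (-1.75 ± 0.20) and Nfil3 from 17.5 and 24.9 to 59.5 and 60.3 CPM (1.49 ± 0.19). Of the 8 genes given here as changed, all kept the call without either rich library, 2 without starved library 1 and 1 without starved library 2.

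Whether a response was particular to the knockout was tested as the difference of the starvation responses, knockout minus wild type, in the same fit. The genotypes already differed in rich medium, the SD of the log2 ratio between a knockout and a wild-type rich library being 1.29 to 1.51. Loss of Carm1 and other differences between the cells of the 2 genotypes cannot be told apart here. That difference passed the threshold in 1850 genes (13.3%), 1030 with the higher response in the knockout (7.42%) and 820 with the lower (5.91%). In the wild type 4561 genes changed (32.9%), 2060 higher (14.8%) and 2501 lower (18%), the shares against which the overlaps below are to be read. These calls use the spread shared by all 8 libraries, which includes the wide knockout rich pair. Fitted alone, the 4 wild-type libraries gave 9332 genes, and the overlaps were not counted with those calls. The share of knockout risers that fell in the wild type was near the 18% of all genes that did. Of the 1171 genes that rose in the knockout, 498 (42.5%) also rose in the wild type and 188 (16.1%) fell there, which are 24.2% of the wild-type risers and 7.52% of its fallers. Of the 1357 that fell in the knockout, 581 (42.8%) fell in the wild type and 85 (6.26%) rose there, or 23.2% of its fallers and 4.13% of its risers. All 188 and all 85 genes with opposite calls also passed the test of the difference. Opposite changes add in that difference, so this is no separate support.

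Matricellular and inflammatory genes were among those with the widest gaps. Cyr61 ran from 278 and 285 CPM to 57.6 and 58.2 CPM in the wild type, the reverse of its course in the knockout, and the responses differed by 6.71 ± 0.23 on the log2 scale (adjusted p 2.99e-05). Ctgf fell from 143 and 137 to 19.3 and 18.7 CPM in the wild type (difference 6.43 ± 0.18). Tnfaip3 fell there from 40.0 and 42.2 to 2.59 and 2.87 CPM (difference 6.71 ± 0.22), and Ccl2 from 61.6 and 62.5 to 1.59 and 1.87 CPM (difference 6.42 ± 0.19). For these 4 genes the wild type fell and the knockout rose, with no overlap of rich and starved libraries in either. Hist1h1c, a linker histone, rose from 1.85 and 3.01 to 6.38 and 7.49 CPM in the knockout and fell from 21.9 and 19.7 to 0.638 and 0.796 CPM in the wild type (difference 6.28 ± 0.39). On the other side, Bnip3 read 30.9 and 31.6 and then 30.3 and 32.8 CPM in the wild type, where it did not pass, while it fell in the knockout (difference -3.78 ± 0.43). Klhl24, a ubiquitin ligase adaptor, rose in the wild type from 6.09 and 4.92 to 66.1 and 65.6 CPM and read 30.9 and 21.8 and 17.2 and 13.4 CPM in the knockout (difference -4.36 ± 0.33). Peg3, an imprinted zinc finger gene, fell from 59.7 and 43.8 to 23.7 and 19.7 CPM in the knockout and went from 0.418 and 1.14 to 4.82 and 3.57 CPM in the wild type (difference -3.62 ± 0.53). Blnk, an adaptor of B-cell receptor signalling, Cxcl5 and Egr2 passed the same test with no counts in the wild-type starved libraries, and Car6 and Parm1 with none in the wild-type rich libraries, so no size is given for them. Txnip fell in both, by less in the wild type, where it started at 20.4 and 20.5 CPM and ended at 5.62 and 6.30 CPM (difference -2.87 ± 0.22).

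**Figure D5:**
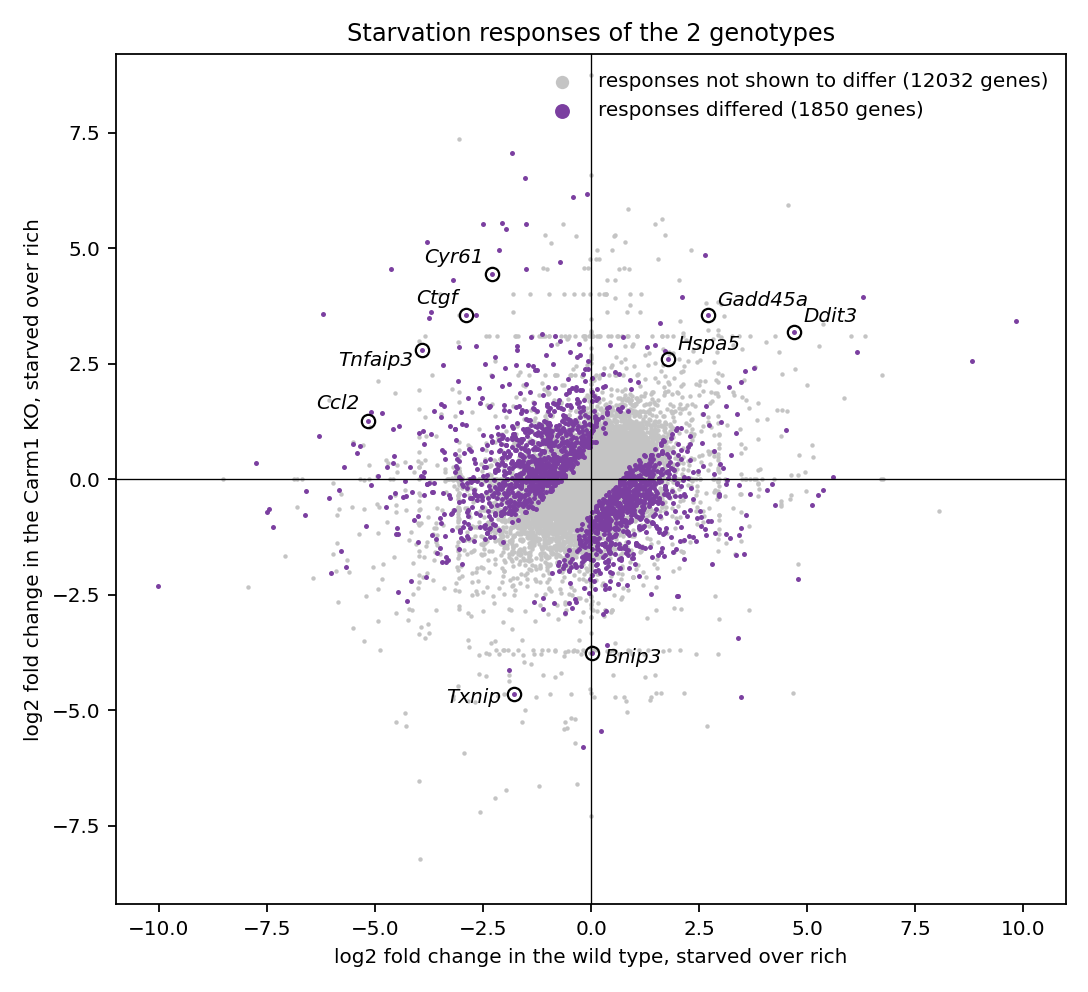
Log2 fold change after starvation in the wild type (horizontal) and in the knockout (vertical) for the 13882 genes tested, with purple points for the 1850 genes whose responses differed and grey points for the rest. Cyr61, Ctgf, Tnfaip3 and Ccl2 lie at the upper left, Hspa5, Ddit3 and Gadd45a at the upper right, and Bnip3 below 0 near the vertical axis.

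By list, the knockout's response was the higher one in 17 of 28 contractile genes, 14 of 26 YAP and TEAD targets, 13 of 20 genes of MAP kinase feedback, 14 of 25 AP-1 and EGR genes, 14 of 32 NF-kB genes and 13 of 29 TGF-beta genes. In these 6 lists, 1 NF-kB gene and 1 TGF-beta gene had the lower response and 0 of the other 4 lists did. Zyx, for one, read 319 and 336 and then 219.7 and 222 CPM in the wild type without passing there, and the difference was 2.42 ± 0.32. Egr1 fell there from 102 and 112 to 11.8 and 12.4 CPM (difference 4.24 ± 0.18). The replication list showed the reverse, with the lower response in the knockout in 26 of 42 genes and the higher in none. Cdc6 rose in the wild type from 76.9 and 78.4 to 152 and 149.9 CPM (difference -2.67 ± 0.19), and Pcna read 318 and 324 and then 309.6 and 321 CPM there (difference -1.38 ± 0.19). Mitosis genes had 12 of 34 with the higher response in the knockout; Top2a, for one, fell from 1067 and 1062 to 274 and 275 CPM in the wild type. In the ER list 12 of 27 genes had the lower response in the knockout and 1 the higher. Manf rose to 587 and 645 CPM in the wild type (difference -1.17 ± 0.18) and Herpud1 to 647 and 643 CPM (difference -1.21 ± 0.23), while Hspa5 was the 1 with the higher response (difference 0.82 ± 0.19). Among autophagy genes 13 of 47 and among hypoxia targets 9 of 19 had the lower response in the knockout. These counts depend on each library kept. The number of genes whose responses differed was between 452 and 487 without any 1 wild-type library, 484 and 473 without knockout starved library 1 and 2, and 7040 and 8020 without knockout rich library 1 and 2. Of the 16 differences given with a size, 11 passed whichever library was left out. Herpud1 (-1.36 to -0.98 over the alternatives) and Hspa5 (0.75 to 0.94) lost the call without any 1 wild-type or knockout starved library, and Manf (-1.25 to -1.04) without any of these but wild-type starved library 1. Pcna (-1.52 to -1.18) lost it without either wild-type rich library or knockout starved library 2, and Peg3 (-4.55 to -3.11) without knockout starved library 2.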

How the data were processed

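RNA-seq reads were aligned with TopHat2 2.0.9 to mm9, and bedtools was used, per the submitters' processing notes. The deposited values are raw counts per RefSeq transcript. Strand, and the treatment of reads shared by near-identical copies: not given in the sources used here. Ribosomal protein genes, Gapdh, Actg1, Hist1h1c and overlapping or antisense genes are therefore uncertain. The transcript with the highest total was kept for each symbol (23366 of 31055). In R 4.3.3, edgeR 4.0.16 filtered genes (filterByExpr), scaled libraries by TMM and fitted a quasi-likelihood model of 4 groups of 2 libraries, with Benjamini-Hochberg adjustment and a threshold of 0.05; the code was tested on simulated data. DESeq2 1.42.0, limma 3.58.1, other scalings and filters, a replicate block and leaving out each library were alternatives.

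The members, the 41 gene lists and the 7 marker lists were chosen with earlier results of these data known. The genes named were Carm1; the 15 largest rises and 15 largest falls past the threshold, with at least 5 CPM and no overlap of groups; up to 6 members of each list by p and 3 by level; the 8 highest and 8 lowest ratios between the rich libraries at 20 CPM or more; the 8 largest differences each way; and the 10 highest levels. A few of these genes are not reported here. Promoter sequences are from RefSeq (GRCm38.p6) and were not joined to mm9 coordinates.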

Additional observations from a re-analysis of the deposited data

Results flagged for a closer look

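The starvation response differed between knockout and wild type, by the test of the difference itself (edgeR's quasi-likelihood test, Benjamini-Hochberg adjusted), in 1850 genes. Among the genes named, the response on the log2 scale was higher in the knockout by 6.71 for Cyr61, 6.71 for Tnfaip3, 6.43 for Ctgf, 6.42 for Ccl2, 6.28 for Hist1h1c, 4.24 for Egr1, 2.42 for Zyx and 0.82 for Hspa5. The difference, knockout minus wild type, was -4.36 for Klhl24, -3.78 for Bnip3, -3.62 for Peg3, -2.87 for Txnip, -2.67 for Cdc6, -1.38 for Pcna, -1.21 for Herpud1 and -1.17 for Manf. Blnk (adjusted p 0.0074), Cxcl5 (adjusted p 0.00172), Egr2 (adjusted p 0.00685), Car6 (adjusted p 0.0283) and Parm1 (adjusted p 0.036) also passed, each with no counts in 1 wild-type group, so no size is given.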

How the results depend on the processing

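Counts of genes that changed in the knockout stayed within 1.5 times of 2528 with other size factors, total counts, other filters, the lowest transcript and DESeq2. With limma-voom and library quality weights the count was 1316 in the knockout and 9393 in the wild type. Leaving out 1 library at a time gave 265 to 8409 genes in the knockout, 1580 to 9561 in the wild type and 452 to 8020 for the difference, which was 2880 with DESeq2. Fitted alone, the 4 knockout libraries gave 0 genes with edgeR (2803 at an unadjusted p under 0.05), 1159 with DESeq2 and 916 with limma-voom and quality weights, the last 2 added after seeing the data, and the 4 wild-type libraries gave 9332. Same-numbered libraries share only a number (correlations of deviations -0.09 to 0.28), and with the replicate number as a block 2111 genes changed in the knockout, 4123 in the wild type and 1490 in the difference. Of 154 named changed genes, 154 passed without either rich library, 80 without knockout starved library 1 and 81 without library 2, 131 without each wild-type library, and 147 with the block; 76 passed in every leave-one-out fit, and the cause was not tested. Calls kept without a rich library are no added support, because those fits drop the widest replicate pair from the shared estimate of spread. Some genes that did not pass as reported changed direction with the rich library left out, from rich library 1 to rich library 2: Tspo (-0.45, 2.58), Galk1 (-0.28, 2.35), Ppig (0.39, -1.53), Ube2d3 (0.32, -1.52), Gapdh (-0.35, 0.52), Srebf2 (-0.27, 1.02), Fasn (-0.31, 0.82) and Carm1 (-0.31, 0.23). Of 1824 counts of list members over the alternatives, 1114 stayed within 1.5 times.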

Other observations

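Other marker lists were read in the knockout libraries. Of 10 neural markers, 6 were below 1 CPM in all 4 libraries with Sox2, Syt1 and Olig2 at 0, and the sum was 669 and 719 CPM in the rich and 782 and 773 CPM in the starved libraries, with Nes, the intermediate filament nestin, the highest at 400.4 and 452 and then 395 and 376 CPM. Of 10 epithelial markers, 8 were below 1 CPM with Epcam, Krt18 and Cldn4 at 0, and the sum of 18.7 and 30.1 CPM in the rich and 55.3 and 50.5 CPM in the starved libraries came mostly from Krt19, a keratin that rose (log2 fold change 1.16 ± 0.22). The 8 adipocyte markers summed to at most 0.738 CPM. Myl6b, a myosin light chain, was unlike its replicate in both groups, at 0.492 and 47.1 CPM in the rich pair and 40.6 and 2.07 CPM in the starved pair.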
